A study of Mus musculus with 4 samples.

Results

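The cytosolic ribosomal protein genes were followed across cell classes and conditions in single-cell RNA sequencing of mouse hearts. Members were the gene rows named Rps or Rpl with a number, together with Rplp0, Rplp1, Rplp2 and Rpsa, without pseudogene rows and without the Rps6k kinases. This gave 83 of 32285 gene rows, of which 32 carry small subunit symbols and 51 large subunit symbols. Of the 83, 77 are core ribosomal proteins and 6 are paralogs of a core gene (Rpl3l, Rpl7l1, Rpl10l, Rpl22l1, Rpl39l and Rps27l). All 83 had an entry in the GENCODE M21 annotation of GRCm38, on 19 chromosomes, with 14 on chromosome 7 and 4 on X.

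The hearts came from 4 groups with 1 library each. The first 2 were labelled control and sham. The third had an operation named cecal ligation and puncture (CLP), which lets gut contents leak and causes sepsis. The fourth had the same operation and received low-level tragus stimulation, an electrical stimulation at the outer ear, and is called CLP plus stimulation. Values for the 4 libraries are listed in the order control, sham, CLP, then CLP plus stimulation. The series title asks whether this stimulation eases septic heart dysfunction through macrophages. The labels describe every library as all cells of the heart and give no strain, age, sex, time after surgery or number of animals. As a group is a single library, differences could not be set against replicates, no test was made, and intervals are 95% intervals that cover counting error only. Every level is relative to the UMI total of its class, so fewer ribosomal protein messages and more of other messages cannot be told apart.

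The libraries held 8741 to 15964 barcodes, of which 7741 to 13568 were kept as cells. The median cell had 2996 unique molecular identifiers (UMIs, counts of distinct captured RNA molecules) in control and 5010.5 to 5491 in the other 3 libraries. Any pair of libraries shared 19 to 60 barcode sequences. Cells were assigned to classes by marker genes, and a class is called gated for that reason. Each class was highest for its own markers, although pericyte-gated cells also held 4043 to 8027 CPM (counts scaled to a fixed class total of 1e6) of endothelial markers and cardiomyocyte-gated cells 1769 to 7380. The 6 neutrophil markers summed to 138, 157, 572 and 664 CPM in macrophage-gated cells of the 4 libraries, 25.8, 94, 370 and 539 CPM in endothelial-gated and 37.6, 59.1, 292 and 280 CPM in fibroblast-gated cells, and so were higher in both CLP libraries in all 3 classes. Their part in the results was not tested. Cells that met no gate were 11.6%, 9.08%, 15.5% and 32.7% of the 4 libraries. Classes with at least 50 cells in a library were compared.

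Ribosomal proteins and ribosomal RNA together form the small subunit, which reads the messenger RNA, and the large subunit, which joins amino acids. The messenger RNAs of these proteins typically begin with a run of pyrimidines (the TOP motif), through which the mTOR kinase and the RNA-binding protein Larp1 control their translation as a group. Lymphocytes are small cells with a high share of ribosomal protein messages, and mature neutrophils carry few. A paralog can take the place of its core protein in the ribosome. Rpl3l does so in heart and skeletal muscle.

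Promoter windows from RefSeq (GRCm38.p6) were available for 63 of the 83 members. The letters GGAAG or their reverse complement CTTCC, the core recognised by ETS family factors, were in 58 of the 63 windows from 250 bases before to 50 after the annotated start (92.1%), and in 71.1% of all 27025 promoters. Within 60 bases before to 10 after the start, 32 of 63 members held these letters (50.8%), against 27.7% of all promoters. A run of at least 8 pyrimidines on the coding strand, within 30 bases of the start, was in 32 of 63 members (50.8%) and in 22.8% of all promoters. AAGATGG or CCATCTT, the YY1 core, was in 9 of 63 (14.3%) against 6.48%. TATAAA or TTTATA was in 6 of 63 (9.52%) against 14.2%, and CCAAT or ATTGG in 19 of 63 (30.2%) against 37.9%. A match is a description of the letters and not evidence of binding.

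The windows below, 60 bases before to 10 after the annotated start, belong to members described in the results. Rps25 and Rps15 stood below the member median with stimulation in every class, and Rplp0 and Rpsa stood above it. The paralogs Rps27l and Rpl22l1 are shown with their core partners Rps27 and Rpl22, and the paralog Rpl3l without its partner. Capitals mark GGAAG or CTTCC. Rps25 is at chr9:44407654-44407723 (plus strand), Rps15 at chr10:80292371-80292440 (plus), Rplp0 at chr5:115559407-115559476 (plus), Rpsa at chr9:120127706-120127775 (plus), Rps27 at chr3:90213639-90213708 (minus), Rps27l at chr9:66946026-66946095 (plus), Rpl22 at chr4:152325666-152325735 (plus), Rpl22l1 at chr3:28805448-28805517 (plus) and Rpl3l at chr17:24727766-24727835 (plus).
Rps25: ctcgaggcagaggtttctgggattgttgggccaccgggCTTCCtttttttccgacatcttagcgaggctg
Rps15: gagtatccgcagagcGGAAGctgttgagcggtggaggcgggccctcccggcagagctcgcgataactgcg
Rplp0: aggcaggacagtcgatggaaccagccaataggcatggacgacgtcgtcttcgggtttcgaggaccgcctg
Rpsa: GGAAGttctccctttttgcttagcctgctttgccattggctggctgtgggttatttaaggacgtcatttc
Rps27: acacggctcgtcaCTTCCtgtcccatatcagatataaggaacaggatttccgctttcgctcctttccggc
Rps27l: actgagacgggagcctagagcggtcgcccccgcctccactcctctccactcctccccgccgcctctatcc
Rpl22: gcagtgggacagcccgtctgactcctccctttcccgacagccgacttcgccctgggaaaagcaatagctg
Rpl22l1: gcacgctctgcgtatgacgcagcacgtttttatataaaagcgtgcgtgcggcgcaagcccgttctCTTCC
Rpl3l: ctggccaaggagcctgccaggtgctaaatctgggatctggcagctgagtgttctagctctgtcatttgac

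Ribosomal protein messages made up 16.8%, 15.9%, 15.9% and 17.3% of the UMIs of all kept cells in the 4 libraries. The share differed more between classes than between libraries. T cell-gated cells had the highest share, 36.5% in control, 33.6% in sham and 35.6% in CLP plus stimulation, and B cell-gated cells followed with 30.2% in control and 29.999% in sham. The CLP library held 11 T cell-gated and 15 B cell-gated cells, too few to compare. Fibroblast-gated cells had 17.1%, 15.5%, 19.0% and 21.0% in the 4 libraries. Macrophage-gated cells had 17.1%, 15.5%, 16.2% and 15.0%, and endothelial-gated cells 15.7%, 15.3%, 13.6% and 14.3%. These 3 common classes lay close together in control and sham, and fibroblast-gated cells stood above the other 2 classes in both CLP libraries. Cardiomyocyte-gated cells had 12.3%, 13.6%, 11.4% and 10.1%. Neutrophil-gated cells had 9.87%, 10.2%, 5.79% and 9.06%, and pericyte-gated cells 8.90%, 9.14%, 8.72% and 7.88%.

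**Figure D1:**
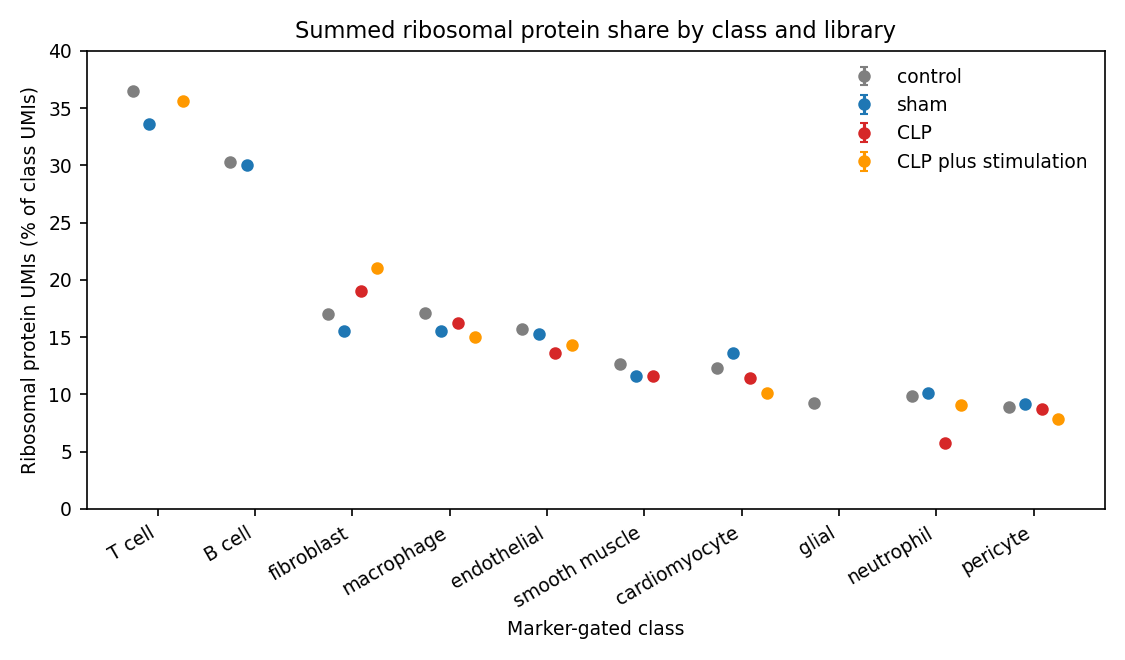
Share of UMIs from the 83 ribosomal protein genes in each marker-gated class (x axis) and library (colour), as a percentage of all UMIs of the class, for classes with at least 50 cells. Bars are 95% exact binomial intervals and are mostly smaller than the points. T cell-gated and B cell-gated cells lie at 29.999% or above, and neutrophil-gated cells of the CLP library are lowest at 5.79%.

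Single members differed in level by orders of magnitude. A 3' UMI count follows the number of captured RNA ends, so levels are not divided by length, but mouse ribosomal protein genes have many processed copies in the genome and the handling of reads that match several places is not given in the sources used here. Levels of different members are therefore uncertain. Over 33 combinations of class and library, Rps29, a zinc-binding protein of the small subunit, had the highest mean level (4694 CPM), followed by Rps24 (4449.6 CPM), Rpl13 (4026 CPM), Rps27 (3533 CPM) and Rps20 (3522 CPM). The lowest were Rps27l (259 CPM), Rpl7l1 (42.6 CPM), Rpl3l (42.2 CPM), Rpl39l (1.53 CPM) and Rpl10l (0.192 CPM), all of them paralogs.

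As a share of ribosomal protein UMIs, most members were alike between classes. Over the 6 classes with at least 50 cells in all 4 libraries, the class mean of the highest class was a median of 1.38 times that of the lowest, and 4 of the 81 members assessed exceeded 2-fold. Rpl10l and Rpl3l were not assessed, Rpl10l having no count and Rpl3l none in pericyte-gated cells, so that no ratio could be formed. The Rpl3l level ran from no count in pericyte-gated cells to 428 CPM in cardiomyocyte-gated cells with stimulation. For 54 of the 81, all 4 libraries of the highest class lay above all 4 of the lowest. The highest and lowest class were picked for each member from these same values, which favours such a separation. Other genes were not assessed in this way. Whether members differ less or more between classes than other genes is therefore not shown. Rps9, which sits at the mRNA entry region of the small subunit, made up 2.81% of ribosomal protein UMIs in neutrophil-gated cells (2.48% to 3.46% over the libraries) and 1.14% in pericyte-gated cells (1.11% to 1.16%). Rps29 was 4.03% in macrophage-gated cells (3.49% to 4.65%) and 2.18% in fibroblast-gated cells (1.99% to 2.40%). Rplp0 was 2.09% in fibroblast-gated cells (1.74% to 2.66%) and 1.12% in pericyte-gated cells (1.06% to 1.14%).

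Levels of the members moved together over classes. Across the 33 combinations, which share 4 libraries and are not independent, the log2 CPM of a member correlated with that of the summed members with a median Pearson r of 0.95 over 79 members, and 61 members exceeded 0.9. Rps27l had the lowest r, -0.14, and Rps15 also had a low r, 0.59. The genes outside the member list with the highest r were Eef1b2, a subunit of the exchange factor of translation elongation (0.97), Gm10076 (0.93), Rack1, a protein of the small subunit with another name (0.90), and Npm1, a nucleolar chaperone of ribosome assembly (0.90). Tomm20, Rps27rt, Snrpg, Btf3, Eef1a1 and Hnrnpa1 followed, at 0.86 to 0.88. Of these, Rps27rt was grouped here with the pseudogene and copied rows of ribosomal protein genes. How reads shared by such rows and members were counted is not given. The median r of 2829 other genes was -0.05. A member's own counts are part of the sum and those of other genes are not, so the values are not directly comparable.

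Sham over control asks what the sham procedure alone did. The summed share was lower in macrophage-gated cells (log2 ratio -0.14) and in fibroblast-gated cells (-0.14), and nearly level in endothelial-gated cells (-0.04). In macrophage-gated cells 56 of 80 members with enough counts were lower, with a median log2 ratio of -0.16 against 0.01 over all 2526 genes. None of the 80 was 1.5-fold higher or lower, where 2.14% of all genes were at least 1.5-fold higher and 0.713% lower. In fibroblast-gated cells 59 of 79 were lower, with a median of -0.12, and none passed 1.5-fold, against 1.12% of genes higher and 0.296% lower. In endothelial-gated cells 44 of 80 were lower, with a median of -0.02. There too none passed 1.5-fold, against 1.08% of genes higher and 0.871% lower. Depth per cell was lowest in control, and macrophage-gated cells below 1000 UMIs had a median share of 7.40% in control and 4.73% in sham, against 19.0% and 15.5% in cells of 8000 to 16000 UMIs. In macrophage-gated cells of 2000 to 8000 UMIs the log2 ratio was -0.21, and in endothelial-gated cells of that depth it was -0.13. The rarer classes went both ways. The summed log2 ratios were 0.14 in cardiomyocyte-gated, 0.04 in neutrophil-gated and 0.04 in pericyte-gated cells, but -0.13 in smooth muscle-gated cells (55 of 79 members lower), -0.12 in T cell-gated cells (52 of 79 lower) and -0.012 in B cell-gated cells (46 of 79 lower). The direction turned with the median over cells in 4 of these classes. The median share per cell was 5.97% in control and 3.88% in sham for neutrophil-gated cells, and 8.26% and 6.88% for pericyte-gated cells. It was nearly level for T cell-gated cells (36.87% and 36.91%) and B cell-gated cells (29.63% and 29.75%). At least 1.5-fold higher were 4 of 81 members in cardiomyocyte-gated cells (9.82% of genes), 2 of 79 in neutrophil-gated cells (8.64%) and 1 of 79 in pericyte-gated cells (13.3%). None was 1.5-fold lower in these cardiomyocyte-gated, neutrophil-gated and pericyte-gated cells, against 11.1%, 16.1% and 13.5% of genes.

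CLP over sham asks what sepsis did. Fibroblast-gated cells had a higher share in CLP (15.5% and 19.0%), with a log2 ratio of 0.29 and a counting interval of 0.290 to 0.295. Of 79 members with enough counts, 76 were higher and 3 lower, with a median of 0.27, while the median of all 3158 genes was -0.09. At least 1.5-fold higher were 12 members (of 79), against 7.28% of all genes, and none was 1.5-fold lower, against 13.3%. All 31 core small subunit genes and 44 of 46 core large subunit genes were higher. The median share per fibroblast-gated cell was 15.3% in sham and 18.7% in CLP. The 6 endothelial markers in these cells summed to 245, 148, 492 and 1167 CPM in the 4 libraries, all 6 being detected in each library, and the 6 fibroblast markers to 19364, 23764, 19510 and 17145 CPM. Endothelial markers were thus lowest in sham and highest with stimulation, the same order over the 4 libraries as the ribosomal protein share. Endothelial-gated cells themselves had a share of 15.7%, 15.3%, 13.6% and 14.3%, below that of fibroblast-gated cells in each library. The part of endothelial messages in the fibroblast-gated share was not tested.

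The P stalk is the lateral arm of the large subunit that recruits elongation factors. The messages of its proteins were all at higher levels in fibroblast-gated cells of CLP than of sham. Rplp1 was 2832, 2989.8, 5751 and 3920.4 CPM in the 4 libraries, highest in CLP. Rplp2 was 1196, 1221, 2029.5 and 1818 CPM, higher in both CLP libraries than in control and sham. Rplp0, the stalk base, was 3227, 2702, 3957 and 5578 CPM, and highest with stimulation. The CLP over sham log2 ratios were 0.94 for Rplp1, 0.73 for Rplp2 and 0.55 for Rplp0. Of these, Rplp1 and Rplp2 passed 1.5-fold and Rplp0 did not. The other 10 members at least 1.5-fold higher in CLP were Rpl13a, Rps15, Rps12, Rpl5, Rpl12, Rps6, Rps25, Rpsa, Rpl23a and Rps18, with log2 ratios of 0.87 for Rpl13a to 0.59 for Rps18. Rpl13a was 757 and 1387 CPM in sham and CLP, Rps15 509 and 922 CPM, and Rps12 2012 and 3539 CPM. Rpl5, which with Rpl11 and 5S RNA forms the particle that can bind Mdm2, was 477 and 819 CPM. Rpsa, a small subunit protein that also serves as a laminin receptor, was 2325 and 3604 CPM. Rpl22 (1264 and 1200.0 CPM), Rps27l (320.0 and 288 CPM) and Rpl35a (2878 and 2789 CPM) were the 3 members that were lower.

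Other genes of the translation machinery were set beside them. Of 17 translation factors, 12 were higher and 5 lower in fibroblast-gated cells of CLP, with a median of 0.22, and Eef2, the elongation factor of translocation, was highest (0.59) and Eef1d lowest (-0.37). Among 27 mitochondrial ribosome genes with enough counts, 9 were higher and 18 lower, with a median of -0.15. Of the 19 regulators of TOP messages, 7 had enough counts, 3 were higher and 4 lower, with Eif4ebp1 highest (0.81) and Myc lowest (-0.84). Of 10 p53 targets, 4 had enough counts, with Cdkn1a highest (0.40) and Phlda3 lowest (-0.67).

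**Figure D2:**
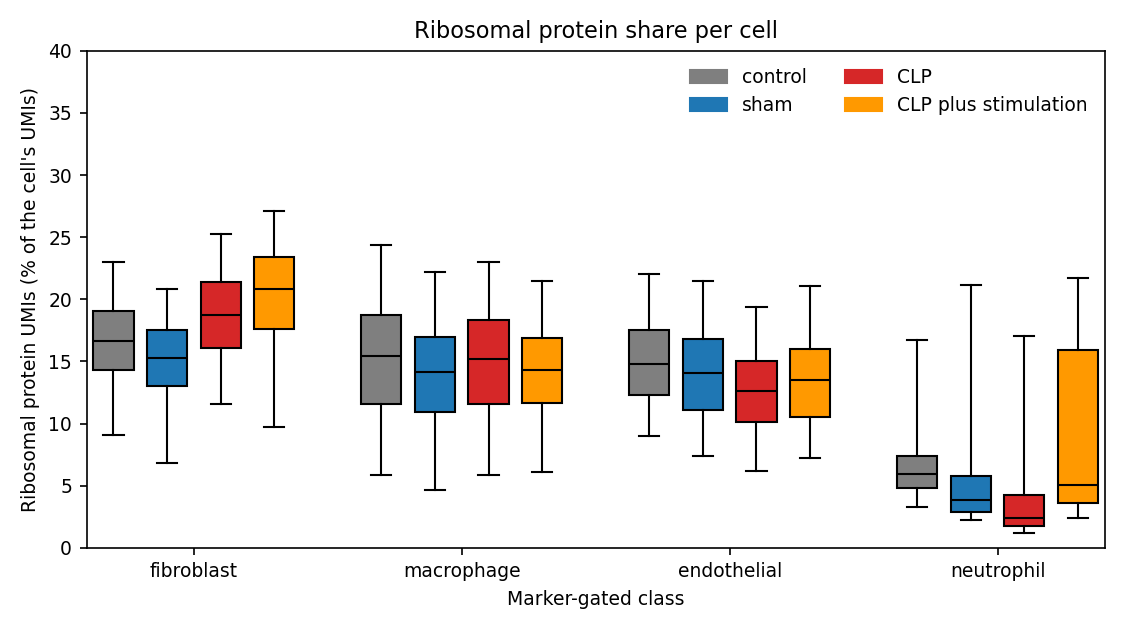
Share of a cell's UMIs from ribosomal protein genes (y axis) in 4 marker-gated classes (x axis) and 4 libraries (colour). Boxes span the quartiles with the median as a line and whiskers reach the 5th and 95th percentiles, over cells. Fibroblast-gated medians were 16.7%, 15.3%, 18.7% and 20.8% in control, sham, CLP, then CLP plus stimulation, and neutrophil-gated medians 5.97%, 3.88%, 2.44% and 5.08%.

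Endothelial-gated cells had a lower share in CLP than in sham (15.3% and 13.6%, log2 ratio -0.17), with 64 of 80 members lower and a median of -0.16 against -0.10 over all 3487 genes. No member was 1.5-fold higher or lower, against 10.3% of genes in each direction. With TMM scaling, which sets most genes level, the log2 ratio of the summed share was -0.014. Rps6, the phosphorylated substrate of S6 kinase, was the highest member, at 929 and 1281 CPM. Rps27l was lowest, at 348 and 253 CPM.

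In macrophage-gated cells the summed share was near level between sham and CLP (15.5% and 16.2%, log2 ratio 0.06). The value was -0.06 in cells of 2000 to 8000 UMIs and 0.28 with TMM scaling. Single members nevertheless went apart. Of 80, 50 were higher and 30 lower, with a median of 0.15 against -0.04 over all 2673 genes. At least 1.5-fold higher were 4, against 15.8% of genes, and 1 was 1.5-fold lower, against 22%. Rpl14 was 677 and 1137 CPM, and Rps15 524 and 842 CPM. Rpl7 was 1579 and 1029 CPM, Rps27 3399 and 2272 CPM and Rps4x 2327 and 1767 CPM. Of the mitochondrial ribosome genes with enough counts, 32 of 39 were higher in macrophage-gated cells of CLP, with a median of 0.29.

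Neutrophil-gated cells had the largest difference of the classes compared, a log2 ratio of -0.81 (10.2% in sham and 5.79% in CLP). Of 79 members, 78 were lower, and 58 were at least 1.5-fold lower, against 36.2% of all genes. None was 1.5-fold higher, against 10.5%. Rps7 (1511 and 560.4 CPM) was lowest and Rps27l highest (101 and 107 CPM). The 6 neutrophil markers themselves took 111427, 137643, 300005 and 181566 CPM of the class in the 4 libraries, and the median of all 2307 genes in CLP over sham was -0.36. The class held 220 cells in sham and 263 in CLP, with median depths of 2688 and 6270.0 UMIs, and the part of either in the result was not tested. Cells of this class were uneven. The summed share lay above the upper quartile over cells in control (7.41%), sham (5.79%) and CLP (4.29%), and with stimulation the median was 5.08% and the upper quartile 15.9%, so cells of high share weighed heavily in the sums. The median over cells was also lower in CLP (2.44%) than in sham (3.88%). Cardiomyocyte-gated cells were also lower in CLP (13.6% and 11.4%, log2 ratio -0.25, 70 of 81 members lower, median -0.25 against -0.13 over all genes), and 1 of the 81 was at least 1.5-fold lower and 2 higher, against 23.4% and 17.1% of genes. In these cells endothelial markers were 6883 and 4344 CPM and neutrophil markers 212 and 1313 CPM in sham and CLP, and their part was not tested. In pericyte-gated and smooth muscle-gated cells the log2 ratios were -0.07 and -0.0018. The median over pericyte-gated cells went the other way, 6.88% in sham and 8.16% in CLP. No member passed 1.5-fold in pericyte-gated cells, against 14.6% of genes higher and 18.4% lower.

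**Figure D3:**
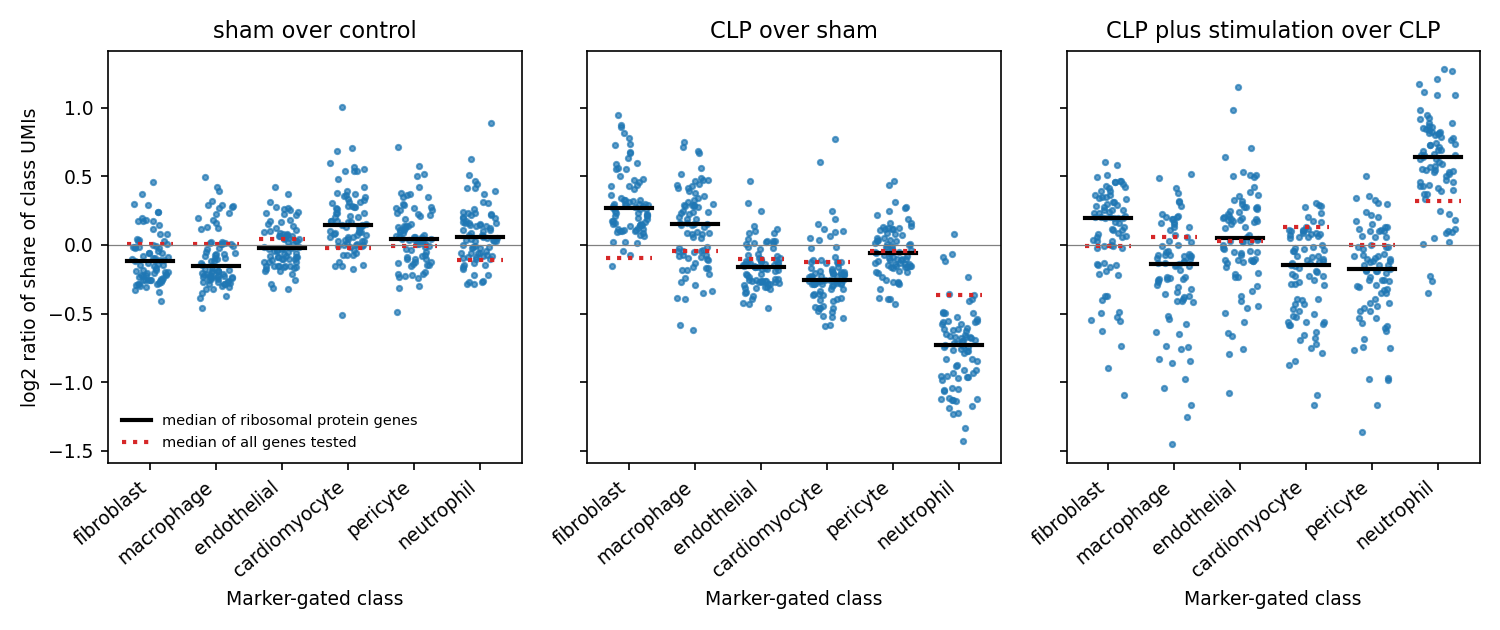
Log2 ratio of each ribosomal protein gene's share of class UMIs (y axis; points, 1 per gene with enough counts) in 6 marker-gated classes and 3 comparisons. Black bars are medians of the ribosomal protein genes and dotted red bars medians of all genes tested. In CLP over sham the ribosomal protein median was 0.27 in fibroblast-gated cells and -0.73 in neutrophil-gated cells.

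CLP plus stimulation over CLP asks what the stimulation did. In fibroblast-gated cells the share was higher still (19.0% and 21.0%, log2 ratio 0.15), with 54 of 79 members higher and a median of 0.20 against -0.01 over all genes. At least 1.5-fold higher was 1 member, against 12.2% of genes, and 4 were at least 1.5-fold lower, against 18.1%. TMM scaling gave a log2 ratio of 0.31 for the sum in this class. In macrophage-gated cells the share was lower (16.2% and 15.0%, -0.11), with 56 of 80 members lower and 13 at least 1.5-fold lower, against 15% of genes. None was 1.5-fold higher, against 18.2%. The log2 ratio of the sum was -0.015 in macrophage-gated cells of 2000 to 8000 UMIs. Mitochondrial ribosome genes were lower in these cells too, 36 of 39, with a median of -0.40. The median of the cytosolic members was -0.14 there, and that of all 2609 genes was 0.06. In endothelial-gated cells the share was slightly higher (13.6% and 14.3%, 0.08), with 46 of 80 higher. There 4 were at least 1.5-fold higher and 5 lower, against 21% and 22.8% of genes. In neutrophil-gated cells the share was higher (5.79% and 9.06%, 0.65), with 76 of 79 members higher and 44 at least 1.5-fold higher, against 31.8% of genes. No member was 1.5-fold lower there, against 8.73%. The median of the members was 0.64, and that of all genes was also above 0, at 0.32. The 6 neutrophil markers summed to 300005 CPM in CLP and 181566 CPM with stimulation, and their part was not tested. The median over these cells was 2.44% in CLP and 5.08% with stimulation, both below the summed share. The sum was lower in pericyte-gated (-0.15) and cardiomyocyte-gated cells (-0.17). At least 1.5-fold lower were 12 of 79 members in the former, against 22.1% of genes, and 12 of 80 in the latter, against 19.7%. None was 1.5-fold higher in either, against 20.6% and 27.5%.

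Below these sums, certain members differed between libraries in the same direction in every class. A member's log2 ratio minus the median of the members in its class was used, so that the class total drops out. In CLP plus stimulation over CLP, 36 of 79 members (45.6%) stood on the same side of the member median in all 6 classes, 15 above and 21 below. Of 1127 other genes, set against the median of all genes, 21.0% did so. In sham over control 27 of 79 members (34.2%) did so over 9 classes, against 7.79% of other genes, and in CLP over sham 20 of 79 (25.3%) over 7 classes, against 11.4%. The shares are not matched for level. The 79 members had mean levels of 259 CPM or more, while other genes needed 50 CPM in the higher library. Counting error is larger at low counts and can change a gene's side, so the shares of members and other genes are not directly comparable. Consecutive comparisons share a library, and classes of a library share its preparation, so these are counts and not replicates.

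Rps15, a protein of the decoding region of the small subunit, deviated furthest with stimulation, by -1.07 in the median class and by -0.84 to -1.31 over the 6 classes. Its level was 398, 524, 842 and 308 CPM in macrophage-gated cells of the 4 libraries, 432, 509, 922 and 433 CPM in fibroblast-gated cells, and 519, 603, 653 and 377 CPM in endothelial-gated cells. In all 3 classes it was highest in CLP and near or under its control level with stimulation. Over all kept cells Rps15 was 446, 546, 778 and 369 CPM in the 4 libraries. Mitochondrial UMIs took the same order, at 2.79%, 3.75%, 3.85% and 2.18% of all kept UMIs. In macrophage-gated cells they were 3.14%, 4.33%, 4.69% and 2.33%, again in the order of Rps15. In endothelial-gated cells they were 2.538%, 3.249%, 3.499% and 2.577%, lowest in control, whereas Rps15 was lowest with stimulation. In fibroblast-gated cells they were 2.12%, 2.88%, 2.97% and 1.76%, lowest with stimulation, whereas Rps15 was near level between control and stimulation. In both of these classes mitochondrial UMIs and Rps15 were highest in CLP, followed by sham. The part of the library difference in mitochondrial UMIs in the Rps15 result was not tested. Rpl23a, at the exit of the peptide tunnel, was 315, 421, 671 and 282 CPM in macrophage-gated cells, with a median deviation of -0.82 with stimulation. Rps25, needed for translation from certain internal entry sites, was 781, 1099, 1517 and 738 CPM, with a median deviation of -0.76. Rpl13a, a large subunit protein also known for repressing inflammatory messages in human monocytes, was 529, 643, 903 and 460.0 CPM, with a median deviation of -0.75. Rps21, Rplp1 and Rps12 were likewise below the member median in every class.

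On the other side stood Rps27a, a fusion of ubiquitin with a small subunit protein (median deviation 0.39), Rpsa (0.38), Rplp0 (0.37), Rps3a1 (0.36), Rps13 (0.32) and Rps2 (0.29). In endothelial-gated cells Rps2, of the mRNA path of the small subunit, was 2266, 2041, 1643 and 3646 CPM in the 4 libraries. Rpsa was 1565, 1438, 1093 and 2161 CPM there, and Rplp0 was 2109.7, 1966, 1987 and 3236 CPM. All 3 were highest with stimulation in endothelial-gated cells. Rps21 went the opposite way in that class, from 2367, 2851 and 2243 CPM to 1064 CPM. In sham over control and in CLP over sham, Rps25 (median deviations 0.57 and 0.41), Rps15 (0.35 and 0.37), Rpl23a (0.45 and 0.32) and Rps6 (0.38 and 0.33) were above the member median in every class compared, and the sham library is in both comparisons.

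**Figure D4:**
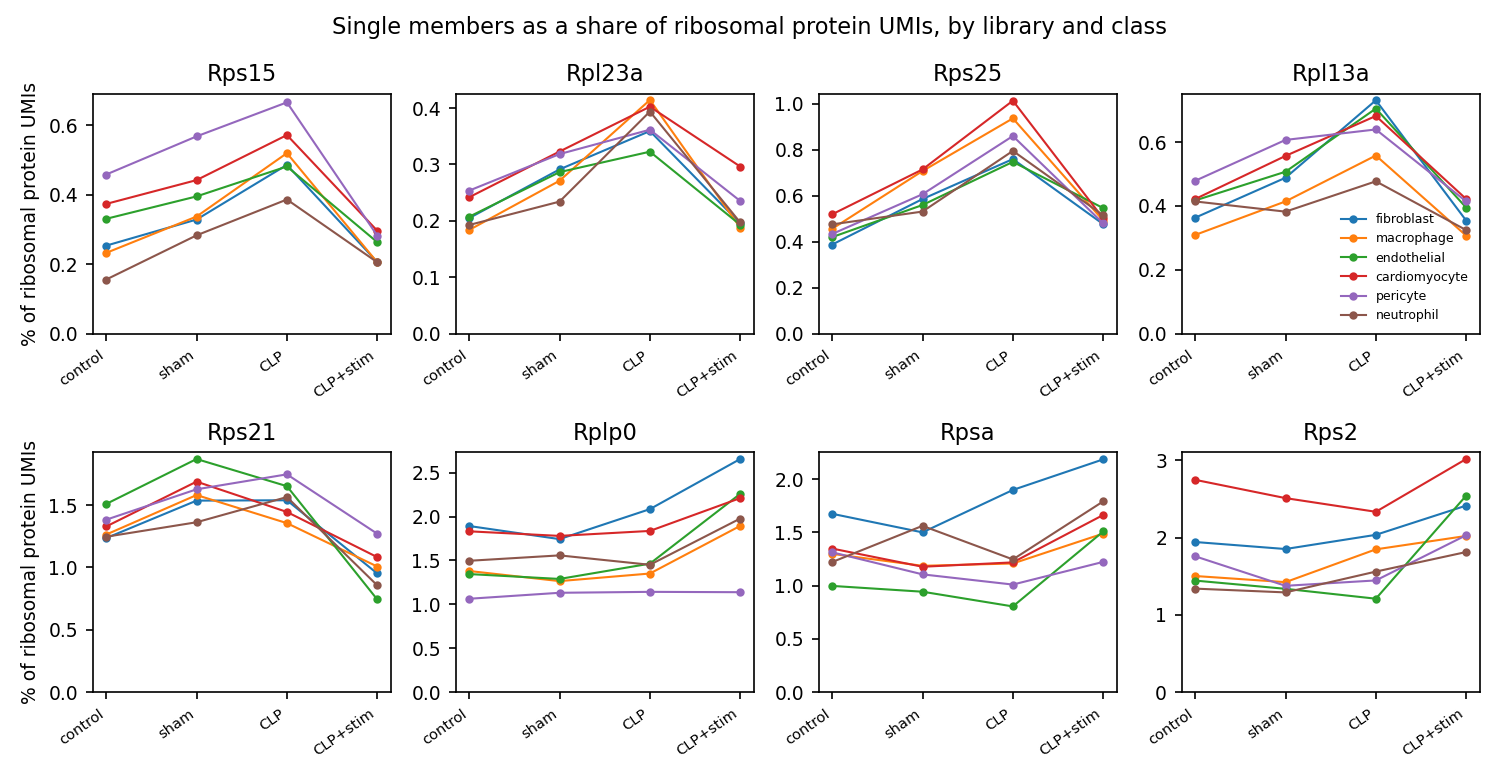
Share of ribosomal protein UMIs (y axis, in percent) taken by 8 members in each library (x axis) and in 6 marker-gated classes (lines). The members were chosen after their values were seen. Rps15 was highest in CLP and lower with stimulation in every class, and Rpsa was higher with stimulation than in CLP in every class.

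The share of the paralogs differed between classes. Rpl3l was 19.2%, 23.1%, 34.1% and 51.4% of the Rpl3 and Rpl3l UMIs in cardiomyocyte-gated cells of the 4 libraries, from 92, 75, 142 and 37 Rpl3l counts. The class with stimulation held 71 cells, and its interval was 39.3% to 63.4%. This interval covers counting error only, and not the spread between cells, animals or libraries. Over the same libraries the endothelial markers in these cells summed to 7380, 6883, 4344 and 1769 CPM and the neutrophil markers to 94.4, 212, 1313 and 1746 CPM. Endothelial-gated cells themselves held 1261 to 1447 CPM of Rpl3 and 5.74 to 9.52 CPM of Rpl3l. The part of these other messages in the percentage was not tested. The Rpl3l level was 202, 233, 356 and 428 CPM, and the Rpl3 level 847, 778, 689 and 405 CPM. In fibroblast-gated and macrophage-gated cells Rpl3l was at most 0.152% of the pair, and pericyte-gated cells held no Rpl3l count, which allows a level of up to 10.9 to 22.2 CPM in the 4 libraries (3 counts of the class total). Neutrophil-gated cells held 2.83% to 4.70%, or 22.1 to 40.6 CPM. Their summed cardiomyocyte markers were 449, 281, 117 and 44.3 CPM in the 4 libraries, with all 6 markers detected in each, and their part in the Rpl3l level was not tested.

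Rpl22l1, whose expression is known to be repressed by Rpl22, was between 45.5% and 51.4% of the pair in fibroblast-gated cells, 33.0% to 41.0% in macrophage-gated cells and 25.4% to 39.4% in endothelial-gated cells. In endothelial-gated cells it was highest with stimulation (39.4%) and lowest in sham (25.4%). Rpl22l1 was 47.7% to 50.2% in smooth muscle-gated cells, 38.6% to 49.3% in neutrophil-gated cells and 32.0% to 54.3% in pericyte-gated cells. T cell-gated cells held 40.4% to 41.3%, B cell-gated cells 36.1% to 36.2% and cardiomyocyte-gated cells 17.9% to 35.1%. Rps27l, a paralog of Rps27 that is a p53 target, was 7.13%, 8.74%, 17.4% and 9.75% of the pair in macrophage-gated cells. In CLP the Rps27l level was higher than in sham (266, 325, 480.0 and 284 CPM) and the Rps27 level lower (3461, 3399, 2272 and 2632 CPM). In fibroblast-gated cells Rps27l was lower in CLP than in sham, at 7.98% and 9.16%. Smooth muscle-gated cells held 15.0%, 16.0% and 11.1% in control, sham and CLP. Pericyte-gated cells held 14.9%, 11.9%, 12.8% and 8.62% in the 4 libraries, and neutrophil-gated cells 2.86% to 7.29%. Rpl7l1 was 46.5, 54.7, 78.4 and 47.0 CPM in macrophage-gated cells, again highest in CLP. Rpl10l, known from testis, had no count in the 6 classes with at least 50 cells in all 4 libraries, which allows up to 0.147 CPM in macrophage-gated cells with stimulation, the deepest of them, and up to 34.7 CPM in the shallowest.

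**Figure D5:**
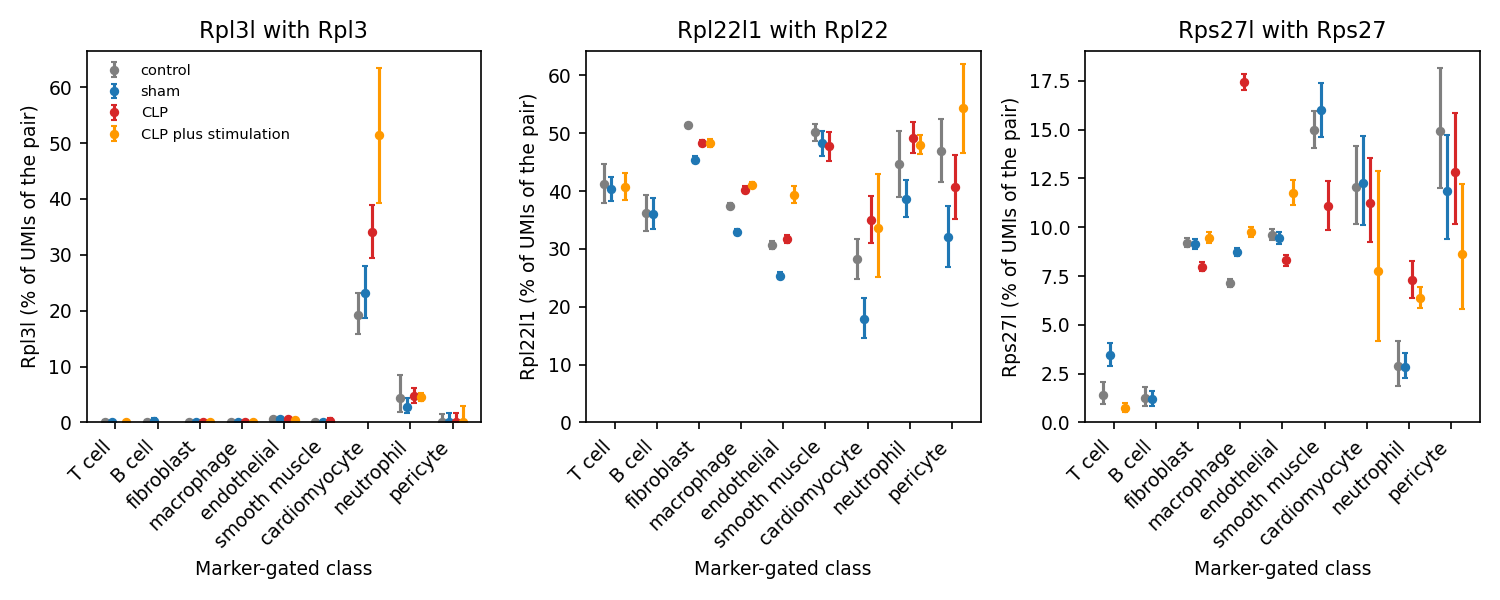
UMIs of 3 paralogs as a percentage of the UMIs of the paralog and its core gene (y axis), by marker-gated class (x axis) and library (colour), with 95% exact binomial intervals. Rpl3l reaches 19.2% to 51.4% in cardiomyocyte-gated cells and stays at or below 4.70% elsewhere, and Rps27l is highest, at 17.4%, in macrophage-gated cells of CLP.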

How the data were processed

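The deposited matrices hold UMI counts per gene and barcode, which the authors produced, per the file headers, in Cell Ranger 5.0.0, from a Single Cell 3' v3 kit per the labels' protocols. STAR and mm10 are named in the submitters' processing notes. Barcodes with at least 500 UMIs, 200 genes and at most 20% mitochondrial UMIs were kept, and the highest Scrublet scores (scanpy 1.11.5), 0.8% per 1000 barcodes, were left out as doublets. A cell took the class of highest mean ln(1 + UMIs per 10000) over 6 markers, with at least 3 detected and a margin of 0.5. Counts were summed per class and library and scaled by all UMIs of the class. Log2 ratios used a prior count of 0.5, for genes with at least 20 counts over both libraries and 50 CPM in the higher. Intervals are exact (Clopper-Pearson, or conditional binomial for ratios). TMM factors came from edgeR 4.0.16. Simulated libraries with 200 changed genes were drawn with counting error only, which is the error that the intervals assume. The interval covered the true value for 92.5% to 98% of these genes, over 9 combinations of class and comparison with 2296 to 3155 genes. Spread between cells or libraries was not simulated. Named genes were the 3 highest and 3 lowest members of each comparison in 3 classes relative to the member median, the most and least abundant members, and fixed lists of paralogs, partners, P stalk and 5S particle. Genes of the cross-class comparison were named after their values were seen. The members and lists were chosen with earlier results of these data known. Rps4l was not analysed here. Named results of 1 other member are not reported here.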

Additional observations from a re-analysis of the deposited data

Results flagged for a closer look

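The difference in summed ribosomal protein share went in opposite directions in the common classes. In CLP over sham the log2 ratio was 0.29 in fibroblast-gated cells and 0.06 in macrophage-gated cells but -0.17 in endothelial-gated cells. In CLP plus stimulation over CLP it was 0.15 in fibroblast-gated cells and 0.08 in endothelial-gated cells but -0.11 in macrophage-gated cells. With 1 library per group, these differences between classes were not tested.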

How the results depend on the processing

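Log2 ratios of the summed share are given in a fixed order: macrophage-gated, endothelial-gated and fibroblast-gated cells, first for sham over control, then CLP over sham, then CLP plus stimulation over CLP. As reported they were -0.14, -0.040, -0.14, 0.060, -0.17, 0.29, -0.11, 0.077 and 0.15. A looser gate gave -0.15, -0.044, -0.14, 0.023, -0.16, 0.29, -0.053, 0.12 and 0.15, and a stricter gate -0.15, -0.029, -0.14, 0.11, -0.17, 0.29, -0.15, 0.073 and 0.14. With doublets kept they were -0.14, -0.044, -0.13, 0.049, -0.16, 0.28, -0.097, 0.094 and 0.15. With at most 10% mitochondrial UMIs they were -0.14, -0.035, -0.13, 0.067, -0.17, 0.29, -0.13, 0.077 and 0.14. Cells thinned to 1000 UMIs gave -0.18, -0.10, -0.16, 0.070, -0.16, 0.31, -0.077, 0.084 and 0.13. Without members and mitochondrial genes in the denominator they were -0.15, -0.036, -0.15, 0.079, -0.19, 0.36, -0.17, 0.074 and 0.16. TMM scaling gave -0.16, -0.11, -0.19, 0.28, -0.014, 0.40, -0.082, 0.12 and 0.31. Alternatives chosen after seeing the data were a denominator without the 20 most abundant other genes (-0.13, -0.047, -0.14, 0.13, -0.13, 0.32, -0.12, 0.078 and 0.17), the median over cells (-0.13, -0.074, -0.13, 0.099, -0.15, 0.29, -0.083, 0.10 and 0.15) and cells of 2000 to 8000 UMIs (-0.21, -0.13, -0.15, -0.063, -0.16, 0.25, -0.015, 0.084 and 0.12). The macrophage-gated CLP over sham value turned to -0.063 in the last of these, and the cause was not tested. The other 8 values kept their direction under these 10 alternatives. No paired analysis was possible because each group is 1 library. The spread between animals cannot be had from these libraries.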
